A study of Homo sapiens with 12 samples.

Results

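The STAT family of transcription factors was followed in SK-N-DZ cells, a human neuroblastoma line, as the mRNA of STAT2, STAT3, STAT4, STAT5A, STAT5B and STAT6. The members were taken by gene name and are 6 of the 43769 genes in the count table. All 6 passed the filter on low counts that left 15828 genes for testing. RNA was sequenced from a line derived from SK-N-DZ that carries a doxycycline-inducible short hairpin RNA against ARID1A, a subunit of the SWI/SNF chromatin remodelling complex, and the labels give its genotype as WT. The 4 groups of 3 libraries each were compared. C was left without doxycycline and without interferon gamma (IFNγ), D received doxycycline for 4 days, I received IFNγ for 24 h, and DI received doxycycline for 4 days with IFNγ for 24 h. The hairpin line was grown as a clone, so the C and I groups carry the same integrated and uninduced hairpin. No group took doxycycline without a hairpin, so an effect of the drug and an effect of the hairpin cannot be told apart, and any property of the 1 clone is shared by all 12 libraries. Nothing in the labels says that replicates came from separate cultures, and p-values then measure the spread between these libraries, which may be technical.

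STAT proteins wait in the cytoplasm as latent factors. When a cytokine binds its receptor, receptor-bound JAK kinases phosphorylate a tyrosine near the STAT carboxyl end, the STATs pair, and the pair enters the nucleus and binds DNA. Several STAT genes are themselves interferon-responsive, so that a first signal can change how much STAT is available for the next one. Activity is set by phosphorylation, which mRNA levels do not measure.

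Each library held 16469832 to 21790869 counts, at which 3 counts equal 0.135 to 0.187 CPM (counts relative to the TMM-scaled library size). ARID1A, the target of the hairpin, averaged 183 CPM ± 16.4 (SD, n = 3) in group C and 171 ± 22.1 in group D, and with IFNγ it averaged 196 ± 5.71 in group I and 144 ± 9.69 in group DI. Its log2 fold change was -0.09 ± 0.11 (SE) in D vs C (edgeR adjusted p = 0.788) and -0.44 ± 0.11 in DI vs I (edgeR adjusted p = 0.115), where the edgeR model with replicate number as a block gave an adjusted p of 0.0111 and DESeq2 gave 0.0149. The DI libraries, at 133 to 151 CPM, all lay below those of I, at 192 to 203 CPM, where 16.6% of all genes had non-overlapping libraries. For SK-N-DZ hairpin cells the paper reports reduced ARID1A by qPCR and by Western blot, which these libraries do not measure. Because edgeR without a block called ARID1A in neither comparison, those with doxycycline are described by the label and not as an ARID1A loss. The adrenergic neuroblastoma markers HAND2, GATA3, DBH and MYCN each averaged at least 1 CPM. Of 6 T and NK cell markers 0 averaged 1 CPM, their sum was 0.164 to 2.12 CPM per library, and CD3E, CD3D and CD2, which define T cells, had 0 counts in every library.

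The 6 genes lie at 3 places in the genome (GRCh38). STAT5B (ENSG00000173757, chr17:42199168-42276707, minus strand), STAT5A (ENSG00000126561, chr17:42287547-42311943, plus strand) and STAT3 (ENSG00000168610, chr17:42313324-42388568, minus strand) are neighbours, with 10839 bases between STAT5B and STAT5A and 1380 bases between STAT5A and STAT3. STAT2 (ENSG00000170581, chr12:56341597-56360155) and STAT6 (ENSG00000166888, chr12:57095408-57132139) are both on the minus strand of chromosome 12, and STAT4 (ENSG00000138378, chr2:191029576-191151596) is on the minus strand of chromosome 2. STAT6 exons share 59 bases with LRP1 and 69 bases with NAB2 on the opposite strand, and whether the counting used strand is not given. STAT5A and STAT5B are the only members with stretches of 75 identical exonic bases in common. These stretches make up 7.06% of STAT5A and 6.46% of STAT5B, so a small part of their reads can fall to either gene.

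The sequences before the starts of STAT2, STAT3 and STAT5A are shown because these were the members that stood higher in every I library than in every C library in the results that follow. They are RefSeq promoter sequences (GRCh38.p14), 5′ to 3′ on the strand of the gene, ending at the base before the outermost annotated start. Capitals mark GGGCGG on either strand, the core of the GC box, and in STAT5A the match to TTCNNNNGAA, the STAT6-type spacing.
STAT2, chr12:56360156-56360357, minus strand: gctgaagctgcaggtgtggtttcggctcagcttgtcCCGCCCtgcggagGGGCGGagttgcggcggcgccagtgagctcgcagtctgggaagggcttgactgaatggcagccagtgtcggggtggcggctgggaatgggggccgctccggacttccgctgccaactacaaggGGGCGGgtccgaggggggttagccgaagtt
STAT3, chr17:42388569-42388692, minus strand: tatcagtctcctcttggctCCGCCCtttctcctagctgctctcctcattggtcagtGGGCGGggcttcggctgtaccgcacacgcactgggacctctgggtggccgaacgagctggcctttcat
STAT5A, chr17:42287189-42287438, plus strand: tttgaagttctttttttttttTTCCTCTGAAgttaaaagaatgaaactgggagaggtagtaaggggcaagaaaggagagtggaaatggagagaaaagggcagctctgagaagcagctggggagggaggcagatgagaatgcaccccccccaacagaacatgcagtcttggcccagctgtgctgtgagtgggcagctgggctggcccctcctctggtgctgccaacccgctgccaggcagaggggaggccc
RefSeq windows were found for 6 of 6 members, 9 windows in all, and 250 bases before each start were searched on both strands. TTCNNNGAA, the spacing that most STAT pairs bind, and GAAANNGAAA, an interferon-stimulated response element, were in none of the 9 member windows. They were in 6.57% and 3.02% of the 35116 windows of all genes. TTCNNNNGAA was in 1 STAT5A window, at -229 from that start, and in 5.38% of all windows. GGGCGG was found 3 times before STAT2, 2 times each before STAT3, STAT5B and STAT6, once in 1 of the STAT5A windows and in none before STAT4, against 42.6% of all windows with at least 1. No letters of one motif overlapped those of another. The search covers only these letters in these windows and says nothing of binding.

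The first comparison asked which members responded to IFNγ without doxycycline. STAT2 and STAT3 rose, by 5.71-fold and 3.84-fold, while the means of STAT5B and STAT6 lay within 1.19-fold of those in C. STAT5A was 3.51-fold higher, and its call depended on whether replicate number was in the model. STAT4 was close to the detection floor.

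STAT2 carries the transactivation domain of the complex that type I interferons assemble with IRF9. Its level was 26.9, 25.5 and 18.2 CPM in C replicates 1, 2 and 3, and 150, 149 and 104 CPM in I. Every I library was above every C library. The log2 fold change was 2.51 ± 0.21 (SE, n = 3 against 3, edgeR adjusted p = 2.92e-05). Within replicate numbers, the I library was 5.58 to 5.85 times its C counterpart, a narrower band than the library levels themselves.

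STAT3 transmits signals of the interleukin-6 family and acts in inflammation, survival and growth. It stood at 84.9, 100 and 56.2 CPM in C and at 309, 356 and 261 CPM in I. The groups did not overlap, and the log2 fold change was 1.94 ± 0.29 (SE, n = 3 against 3, edgeR adjusted p = 0.00311). Within numbers the ratio ran from 3.56 to 4.64, with the highest in replicate 3, whose C library was the lowest of the 3. STAT3 made up 30.0% to 37.5% of the counts of the 6 members in libraries without IFNγ and 48.0% to 54.9% in those with it.

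STAT5A and STAT5B are close paralogs that transmit growth hormone, prolactin and interleukin-2 family signals. STAT5A had 14.4, 18.6 and 4.74 CPM in C and 45.4, 63.8 and 23.4 CPM in I. The groups did not overlap, but replicate 3 of I was only slightly above replicate 2 of C. The log2 fold change was 1.81 ± 0.78 (SE) and was not called (edgeR adjusted p = 0.556), whereas the edgeR model with replicate number as a block gave 1.92 ± 0.31 (adjusted p = 0.00329). STAT5B had 67.2, 80.4 and 62.3 CPM in C and 67.1, 74.1 and 56.9 CPM in I. These ranges overlapped, with a log2 fold change of -0.08 ± 0.15 (SE, edgeR adjusted p = 1). STAT5A therefore took a larger share of the STAT5 counts with IFNγ: 17.6%, 18.8% and 7.07% in the C libraries and 40.4%, 46.2% and 29.1% in the I libraries. With counts of both genes summed, as would apply if reads could not be told apart, the log2 fold change was 0.42 ± 0.22 (SE, edgeR adjusted p = 0.776).

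STAT6, the factor of interleukin-4 and interleukin-13 signalling, had 57.0, 66.4 and 39.0 CPM in C and 70.9, 74.6 and 48.4 CPM in I. The ranges overlapped, and the log2 fold change was 0.25 ± 0.36 (SE, edgeR adjusted p = 1). The I library was the higher of the pair at each replicate number, by 1.12 to 1.24 times. STAT4, which serves interleukin-12 signalling in lymphocytes, had 2, 7 and 4 counts in the C libraries and 10, 6 and 13 in the I libraries. At this depth its log2 fold change of 1.03 ± 0.69 (SE) was not distinguishable from 0 (edgeR adjusted p = 0.932). In the fit of only the C and I libraries STAT4 did not pass the low-count filter.

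Of the 6 members 2 were called higher in I vs C, against 2.10% of all genes tested, and none was called lower. With replicate number as a block 3 were called, against 4.88% of all genes. In 3 members, STAT2, STAT3 and STAT5A, every I library was above every C library, as in 8.83% of all genes, and the exact permutation test over libraries gave p = 0.1 for each, the smallest it can give with 3 against 3. The mesenchymal markers COL1A1, COL1A2, PDGFRB, DCN and THY1, of which 4 of 5 averaged at least 1 CPM, summed to 95.0 to 117 CPM in C and 119 to 157 CPM in I. Their part in the result was not tested.

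**Figure D1:**
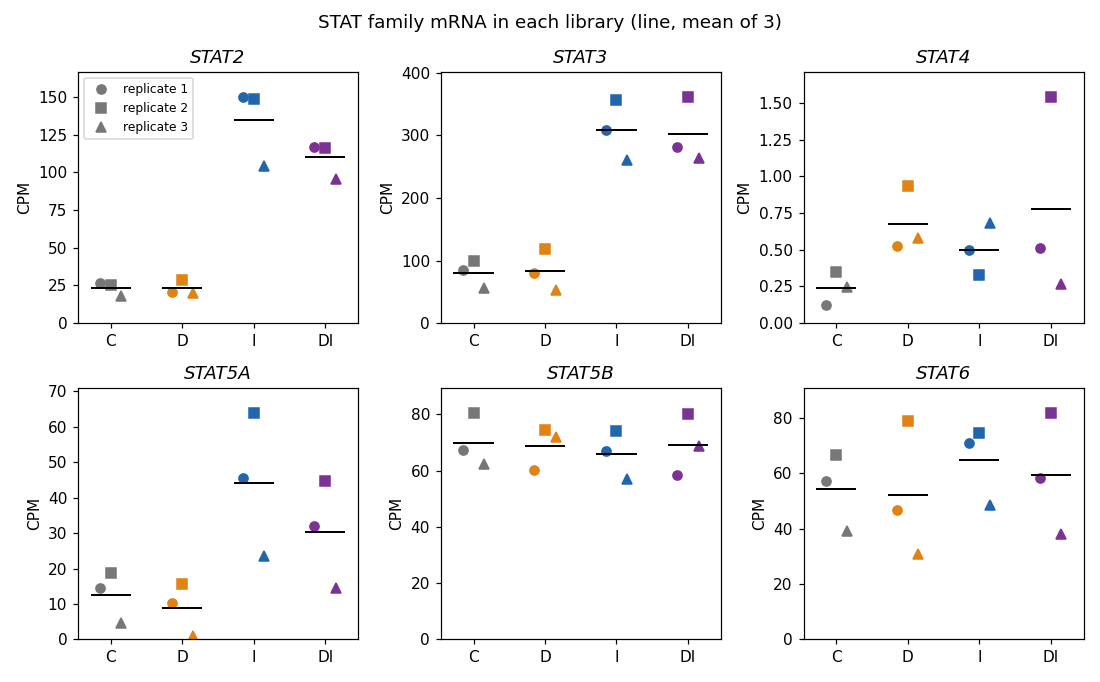
Level of each STAT family member in CPM (vertical axes start at 0 and differ between panels) in the 12 libraries of the groups C, D, I and DI, with symbols for the replicate number and a line at the mean of 3. STAT2 and STAT3 stand higher in all 6 libraries with IFNγ, STAT5B stays between 56.9 and 80.4 CPM throughout, and the triangles of replicate 3 are lowest in every group for STAT2, STAT3, STAT5A and STAT6.

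The same question in cells with doxycycline was asked by DI vs D. STAT2 rose 4.76-fold and STAT3 3.60-fold, and STAT5A was 3.37-fold higher with the same dependence on the block. STAT2 had 20.5, 28.3 and 20.2 CPM in D and 117, 116 and 95.5 CPM in DI, with no overlap (log2 fold change 2.25 ± 0.21 SE, edgeR adjusted p = 7.61e-05). STAT3 had 79.8, 119 and 53.4 CPM in D and 281, 361 and 264 CPM in DI, also with no overlap (log2 fold change 1.85 ± 0.29 SE, edgeR adjusted p = 0.00524). These were the 2 members called, against 1.67% of all genes, and the same 2 were the members without overlap, against 5.77% of all genes. The mesenchymal markers summed to 68.0 to 83.9 CPM in D and 93.0 to 121 CPM in DI, and their part in the result was not tested.

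STAT5A had 10.3, 15.6 and 1.10 CPM in D and 31.9, 44.8 and 14.4 CPM in DI. Replicate 3 of DI lay below replicate 2 of D, so the groups overlapped. The log2 fold change was 1.75 ± 0.78 (SE, edgeR adjusted p = 0.768) without a block and 1.97 ± 0.31 (adjusted p = 0.00384) with it, and 3 members were then called, against 3.77% of all genes. The log2 ratio of DI to D was 1.64 in replicate 1, 1.52 in replicate 2 and 3.71 in replicate 3, where the D library held 19 STAT5A counts. STAT5B had 60.1, 74.4 and 72.0 CPM in D and 58.4, 80.1 and 68.7 CPM in DI, and STAT6 had 46.6, 78.8 and 30.9 CPM in D and 58.3, 81.6 and 37.9 CPM in DI. Both overlapped, with log2 fold changes of 0.01 ± 0.15 and 0.18 ± 0.36 (SE, edgeR adjusted p = 1 for both). STAT4 had 11, 18 and 10 counts in D and 10, 30 and 6 in DI, which scattered more within DI than between the groups (log2 fold change 0.18 ± 0.63 SE, edgeR adjusted p = 1).

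**Figure D2:**
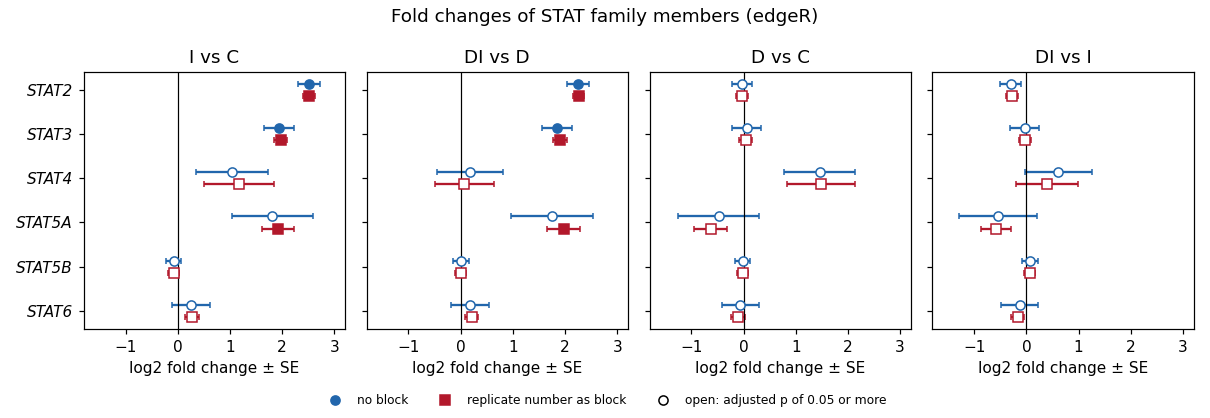
Log2 fold change ± SE of each member in 4 comparisons, from edgeR without a block (circles) and with replicate number as a block (squares), where filled symbols have an adjusted p under 0.05. STAT2 and STAT3 are filled under both models in I vs C and DI vs D, STAT5A is filled only with the block, and every symbol is open in D vs C and DI vs I.

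The 2 comparisons across doxycycline asked whether the members differed by that label, without IFNγ in D vs C and with it in DI vs I. In D vs C 0 of 6 members were called by edgeR, with 0 at an unadjusted p under 0.05. DESeq2 called 0 and gave no adjusted p for STAT4. Of all genes 1.23% were called in either direction by edgeR. STAT2 and STAT3 had log2 fold changes of -0.03 ± 0.20 and 0.06 ± 0.28 (SE, edgeR adjusted p = 0.971 and 0.954), and STAT5B and STAT6 had -0.02 ± 0.15 and -0.06 ± 0.36 (SE, edgeR adjusted p = 0.972 for both). These 4 members had overlapping libraries. STAT5A had -0.48 ± 0.77 (SE, edgeR adjusted p = 0.852), and the D library was the lower at each replicate number, with log2 ratios of -0.49, -0.25 and -2.11. With replicate number as a block the value was -0.63 ± 0.32 (SE, edgeR adjusted p = 0.214). Without replicate 3 of every group it was -0.36, and without D replicate 3 alone, which leaves the low C replicate 3 in the fit, it was 0.03.

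STAT4 was the 1 member whose D libraries, at 0.524, 0.931 and 0.579 CPM, all lay above the C libraries, at 0.123, 0.348 and 0.249 CPM. Over the 3 libraries of each group this was 39 counts against 13. The log2 fold change was 1.46 ± 0.68 (SE, unadjusted p = 0.0568, edgeR adjusted p = 0.369), and 19.2% of all genes had non-overlapping libraries in this comparison. The exact permutation test gave p = 0.1, the smallest it can give. With replicate number as a block the unadjusted edgeR p was 0.0428 and the adjusted p was 0.152. STAT4 had 10 to 18 counts in D libraries and 2 to 7 in C. Its passing of the low-count filter therefore leaned on D, the group where it was high. In the fit of only the C and D libraries it did not pass. Without the filter the log2 fold change was 1.45 (edgeR adjusted p = 0.609). With IFNγ the STAT4 groups overlapped, at 0.495, 0.327 and 0.681 CPM in I and 0.513, 1.54 and 0.270 CPM in DI (log2 fold change 0.61 ± 0.64 SE, edgeR adjusted p = 0.796).

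In DI vs I, 0 of 6 members were called by edgeR, with 0 at an unadjusted p under 0.05. DESeq2 called 0 and again gave no adjusted p for STAT4. Of all genes 0.670% were called in either direction by edgeR. STAT2 was at 135 CPM ± 26.6 (SD, n = 3) in I and 110 ± 12.2 in DI, a log2 difference of -0.30 ± 0.20 (SE, edgeR adjusted p = 0.624). The DI library was the lower at each replicate number, with log2 ratios of -0.36, -0.37 and -0.12, but the groups overlapped. The block narrowed the error to 0.11, with an unadjusted edgeR p of 0.0223 and an adjusted p of 0.116. STAT5A was also lower at each number, with log2 ratios of -0.51, -0.51 and -0.70, and its log2 fold change was -0.54 ± 0.75 (SE, edgeR adjusted p = 0.862). STAT3 was at 309 CPM ± 47.8 in I and 302 ± 51.8 in DI (SD, n = 3), and its log2 fold change was -0.03 ± 0.28 (SE, edgeR adjusted p = 0.987). STAT5B and STAT6 had 0.07 ± 0.15 and -0.13 ± 0.36 (SE, edgeR adjusted p = 0.931 and 0.946). None of the 6 members had non-overlapping I and DI libraries, against 16.6% of all genes.

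Whether the response to IFNγ itself differed with doxycycline was tested by the interaction, DI minus D set against I minus C. It was called for 0 of 6 members, with 0 at an unadjusted p under 0.05 in edgeR and 0 called by DESeq2, and edgeR called 0% of all genes. The log2 interaction was -0.26 ± 0.28 (SE) for STAT2, -0.09 ± 0.40 for STAT3, -0.06 ± 1.07 for STAT5A, 0.09 ± 0.22 for STAT5B, -0.07 ± 0.51 for STAT6 and -0.84 ± 0.93 for STAT4 (edgeR adjusted p = 1 for each). With replicate number as a block the STAT5A interaction was 0.05 ± 0.43 (SE, edgeR adjusted p = 1), and with the block within each doxycycline arm its SE was 0.29.

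The members also differed by replicate number, a pattern chosen for description after the values were seen. STAT2, STAT3, STAT5A and STAT6 were lowest in replicate 3 in 4 of 4 groups, as were 15.2% of all genes. In the model with replicate number as a block, replicate 3 was below the mean of replicates 1 and 2 by a log2 difference of -1.72 ± 0.25 (SE) for STAT5A, -0.77 ± 0.10 for STAT6, -0.54 ± 0.10 for STAT3 and -0.40 ± 0.08 for STAT2, with edgeR adjusted p-values of 0.000438, 0.000218, 0.00166 and 0.00362. These 4 of 6 members compare with 18.0% of all genes called lower. STAT5B and STAT4 had -0.11 ± 0.08 and -0.30 ± 0.47 (SE, edgeR adjusted p = 0.308 and 0.663). The labels do not say what a replicate number marks. Within a group the highest STAT5A library was 2.73 to 14.2 times replicate 3, while for STAT2 that ratio was 1.23 to 1.48.

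**Figure D3:**
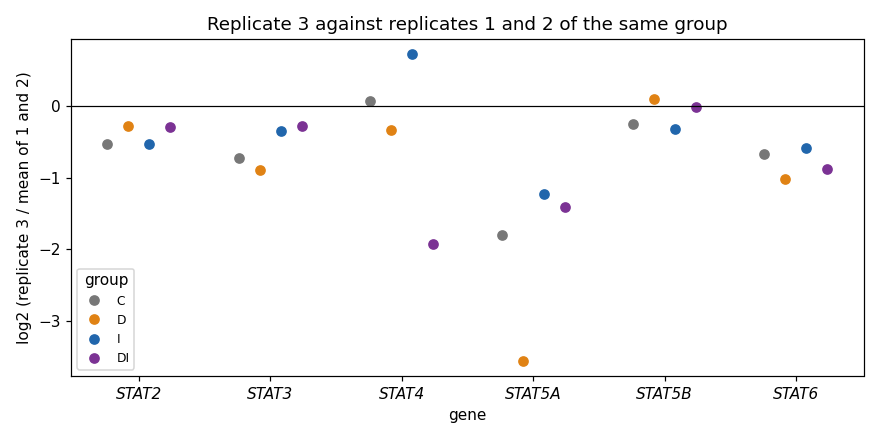
Log2 ratio of the CPM in replicate 3 to the mean CPM of replicates 1 and 2 of the same group (vertical axis), for each member, with 1 point per group. All 4 points lie below 0 for STAT2, STAT3, STAT5A and STAT6, and those of STAT5A lie lowest apart from 1 STAT4 point that rests on few counts.

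Levels of different genes were compared as CPM per kilobase of exon, a level and not a fold change. In C the order was STAT5B at 10.9 ± 1.45 (SD, n = 3), STAT3 at 9.12 ± 2.53, STAT6 at 7.42 ± 1.91, STAT2 at 3.85 ± 0.767, STAT5A at 2.18 ± 1.23 and STAT4 at 0.0501 ± 0.0235. The first 3 overlapped in their libraries, STAT6 and STAT2 did not, and STAT2 overlapped STAT5A. The order was the same in D, but there STAT6 overlapped STAT2, STAT2 stood apart from STAT5A, and STAT5A overlapped STAT4. In I it was STAT3 at 35.0 ± 5.42, STAT2 at 22.0 ± 4.35, STAT5B at 10.2 ± 1.34, STAT6 at 8.86 ± 1.94, STAT5A at 7.68 ± 3.51 and STAT4 at 0.105 ± 0.0370, and DI had the same order. STAT3 stood apart from STAT2, and STAT2 from STAT5B, in both groups with IFNγ, whereas STAT5B overlapped STAT6, and STAT6 overlapped STAT5A. STAT4 stood apart below STAT5A in C, I and DI. STAT2 lay above 46.8% of all tested genes in C and above 85.8% in I, and STAT3 above 67.5% and 92.0%. With the length of the longest transcript in place of all exons, STAT3 came before STAT5B in C and D, and STAT6 before STAT5B in I and DI.

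**Figure D4:**
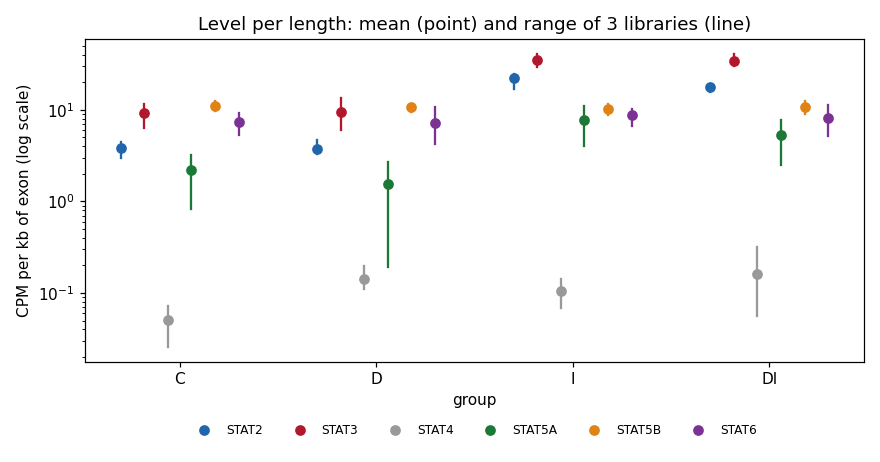
Level of each member in CPM per kilobase of exon (log scale) in the 4 groups, with points for the mean of 3 libraries and lines from the lowest to the highest library. STAT2 passes STAT5B and STAT6 in the groups with IFNγ, and STAT4 is lowest in every group.

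Across the 12 libraries STAT2 and STAT3 had the most similar profiles among the members (Pearson r = 0.977 of log2 CPM), then STAT3 and STAT5A (r = 0.853) and STAT5A and STAT6 (r = 0.816). STAT2 and STAT5B had r = -0.039. Among all tested genes of at least 1 CPM, STAT2 was most like C1S (r = 0.998), TRIM22 (r = 0.995) and UBE2L6 (r = 0.992), and STAT3 was most like ERAP2 (r = 0.992), SERPING1 (r = 0.989) and HLA-E (r = 0.987). C1S and SERPING1 are a protease and an inhibitor of the classical complement pathway, ERAP2 trims peptides for antigen presentation, and UBE2L6 conjugates ISG15. STAT5A was most like EXOC3L1 (r = 0.978), CEBPD (r = 0.977) and SCN2A (r = 0.976), and STAT6 was most like TGFB1I1 (r = 0.981), IGFBP5 (r = 0.980) and COPA (r = 0.975). For STAT5B and STAT4 the nearest genes were CLASP2 (r = 0.921) and ZNF887P (r = 0.857). The 12 points share the 4 groups, the replicate numbers and the library depth, so the values describe likeness only.

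The rest of the pathway was read from fixed lists, beginning upstream. Of 6 interferon receptor genes 5 were tested, and edgeR called 0 in I vs C or DI vs D, with 3 and 2 at an unadjusted p under 0.05. DESeq2 called 1 higher in each, against 2.59% and 2.13% of all genes. The block called 2 and 1, against 4.88% and 3.77%. The medians were 0.45 and 0.30 on the log2 scale, against -0.008 and -0.012 for all genes. Of 4 JAK kinases JAK2, which sits on IFNGR2, was called higher in I vs C (4.19 CPM ± 0.698 to 31.0 ± 8.66, SD, n = 3, log2 fold change 2.89 ± 0.27 SE, edgeR adjusted p = 8.22e-05) and in DI vs D (2.23 ± 0.27, edgeR adjusted p = 0.00064). Of all genes, edgeR called 2.10% and 1.67% higher in these 2 comparisons. TYK2, the kinase of the type I interferon receptor, was called higher in DI vs I. There edgeR called 0.670% of all genes in either direction. TYK2 was at 36.7 CPM ± 3.24 in I and 55.6 ± 4.43 in DI (log2 fold change 0.60 ± 0.11 SE, edgeR adjusted p = 0.0341). Leaving out any 1 of 9 of the 12 libraries, among them all 3 of I, ended that call. Its D vs C value was 0.43 ± 0.11 (SE, edgeR adjusted p = 0.0915, or 0.013 with the block). JAK2 in DI vs I had -0.65 ± 0.25 (SE, edgeR adjusted p = 0.325). Of 30 other cytokine receptor genes that signal through STATs 15 were tested. In each IFNγ comparison 1 was called higher, against 2.10% and 1.67% of all genes. This was IL15RA, which presents interleukin-15. It had 0 counts in all 6 libraries without IFNγ, so it passed the low-count filter only through libraries with IFNγ. It averaged 3.82 CPM ± 0.771 in I, at least 22.1-fold above the floor of 3 counts averaged over the C libraries. With the block 3 were called in I vs C and 2 in DI vs D, against 4.88% and 3.77% of all genes.

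Among 7 STAT partners, 3 were called higher in I vs C and in DI vs D, against 2.10% and 1.67% of all genes. NMI, which binds STAT proteins, went from 0.145 CPM ± 0.252 in C to 36.6 ± 4.58 in I, and IRF1, a transcription factor of the interferon response, from 2.14 ± 0.288 to 411 ± 31.0 (SD, n = 3). NMI reached at most 0.436 CPM in C and 0.290 CPM in D. It therefore passed the low-count filter only through libraries with IFNγ and could be called higher or not at all. The counts of 3 carry that limit. IRF9, the DNA-binding partner of STAT2, averaged 0.730 CPM ± 0.255 in group C and 1.98 ± 0.780 in group D, then 4.94 ± 1.48 in group I and 8.71 ± 0.611 in group DI. Its log2 fold change was 2.74 ± 0.39 (SE, edgeR adjusted p = 0.00207) in I vs C and 2.13 ± 0.37 (edgeR adjusted p = 0.00985) in DI vs D. Across doxycycline it was 1.42 ± 0.38 (SE, edgeR adjusted p = 0.116, or 0.0259 with the block) in D vs C and 0.82 ± 0.35 (SE, edgeR adjusted p = 0.385) in DI vs I. In D vs C edgeR called 0 of the 7 partners, with 4 at an unadjusted p under 0.05, DESeq2 called 2, against 2.24% of all genes called higher by that test, and the block called 4, against 6.23%.

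Of 19 STAT inhibitors and phosphatases 18 were tested. In I vs C 3 were called higher and 1 lower, against 2.10% and 0.114% of all genes, and DI vs D gave the same counts, against 1.67% and 0.0505%. SOCS1, which inhibits JAK kinases, rose from 0.881 CPM ± 0.661 to 51.5 ± 5.10 in I (log2 fold change 5.89 ± 0.51 SE, edgeR adjusted p = 3.87e-05). USP18, a protease that removes ISG15 and dampens type I interferon signalling, was at 0.202 CPM ± 0.175 in C and 11.2 ± 3.85 in I (edgeR adjusted p = 0.00191). USP18 reached at most 0.307 CPM in C and 0.463 CPM in D, so it passed the low-count filter only through libraries with IFNγ. It could be called higher or not at all, and the counts of 3 called higher carry that limit. SOCS3, an inhibitor of STAT3 signalling, was at 1.32 CPM ± 0.888 in C and 14.7 ± 5.53 in I (log2 fold change 3.46 ± 0.70 SE, edgeR adjusted p = 0.0245). SOCS2, a feedback inhibitor induced by STAT5, moved the other way, from 26.1 CPM ± 4.97 to 3.07 ± 1.07 (log2 fold change -3.08 ± 0.37 SE, edgeR adjusted p = 0.000547). In DI vs D it had -2.24 ± 0.35 (SE, edgeR adjusted p = 0.0052). In DI vs I none of the 18 was called by edgeR, with 5 at an unadjusted p under 0.05, DESeq2 called 1 higher, against 1.13% of all genes, and the block 2, against 3.85%. SOCS1 and SOCS3 had -0.88 ± 0.39 and -0.26 ± 0.62 there (SE, edgeR adjusted p = 0.401 and 0.933). In D vs C SOCS7 was the 1 called, against 1.23% of all genes called in either direction. It was at 76.8 CPM ± 5.67 in C and 113 ± 2.95 in D (log2 fold change 0.56 ± 0.12 SE, edgeR adjusted p = 0.0452). Leaving out any 1 of 10 of the 12 libraries, all 6 of C and D among them, ended that call.

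Downstream, 20 genes known as targets of the STAT2-IRF9 complex were listed and 16 were tested. In I vs C 14 were called higher, against 2.10% of all genes, and 0 lower. The median log2 fold change was 5.75, or 5.06 with the 4 genes at or under the floor in C set at their bounds. These 4 were also at or under the floor in D. USP18, a further target on the list, reached at most 0.307 CPM in C and 0.463 CPM in D. USP18 and the 4 genes passed the low-count filter only through libraries with IFNγ and could be called higher or not at all. Whether other targets also did was not examined. The count of 14 carries at least that limit. HERC5 and IFI44L were the tested targets not called. In DI vs D 13 were called higher, against 1.67% of all genes and with the same limit. The median was 4.98, or 4.41 with bounds. OAS3, an antiviral sensor of double-stranded RNA, had 0 counts in C and 49.1 CPM ± 15.8 in I, at least 283-fold higher, and IFIT3, a binding partner of IFIT1, was at most at 2 counts in C and at 273 CPM ± 67.8 in I, at least 1576-fold higher. IFI44, an interferon-induced gene, had 0 counts in D and 7.72 CPM ± 5.37 in DI, at least 49.0-fold higher (edgeR adjusted p = 0.00136).

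The same targets across doxycycline gave 3 called lower in DI vs I, against 0.569% of all genes, and a median log2 fold change of -0.90 against -0.007. IFI27 was at 96.0 CPM ± 11.7 in I and 27.4 ± 4.82 in DI (log2 fold change -1.81 ± 0.30 SE, edgeR adjusted p = 0.0239), IFIT3 at 273 ± 67.8 and 100 ± 19.9 (-1.44 ± 0.24, edgeR adjusted p = 0.0247), and IFIT2 at 55.2 ± 11.9 and 24.7 ± 3.65 (-1.16 ± 0.20, edgeR adjusted p = 0.033). All 16 tested targets had a log2 fold change below 0. DESeq2 called 5 lower, against 2.21% of all genes, and the block 9, against 6.62%. Leaving out any library of I or DI left 0 called, except I replicate 3, without which 1 was called. The interaction was called for 0 targets by edgeR, with 3 at an unadjusted p under 0.05, and 0 by DESeq2, with a median of -0.71. STAT2 in the same comparison had the log2 fold change of -0.30 given above, IRF9 had 0.82, and none of the 6 STAT members was called.

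Of 18 STAT3 targets 17 were tested and 2 were called higher in each IFNγ comparison, against 2.10% and 1.67% of all genes. They were SOCS3 and BCL6, a transcriptional repressor. BCL6 was at 8.37 CPM ± 3.04 in C and 48.5 ± 12.8 in I (log2 fold change 2.53 ± 0.42 SE, edgeR adjusted p = 0.00608). The median was 0.35 in I vs C and 0.33 in DI vs D, where 15 and 16 of the 17 were above 0. The block called 6 and 5, against 4.88% and 3.77% of all genes, and DESeq2 called 4 and 3, against 2.59% and 2.13%. Both calls were lost in I vs C without C replicate 1, and in DI vs D without D replicate 1, D replicate 3 or DI replicate 2. SOCS3 alone was lost in I vs C without C replicate 2, C replicate 3, I replicate 1 or I replicate 2, and in DI vs D without DI replicate 1. Of 12 STAT5 targets 8 were tested, with BCL6 called higher and SOCS2 lower in both IFNγ comparisons. Of all genes 2.10% were called higher and 0.114% lower in I vs C, and 1.67% and 0.0505% in DI vs D. The median of the STAT5 targets was 0.03 in I vs C and 0.28 in DI vs D. This list does not separate genes that STAT5 induces from genes that it represses. Of 10 STAT6 targets 6 were tested, with medians of 0.35 and -0.12. SOCS1 was the 1 called higher in both, against the same 2.10% and 1.67%. Of 8 STAT4 targets 1 was tested and 0 were called by edgeR in I vs C, with 1 at an unadjusted p under 0.05. DESeq2 and the block called it higher, against 2.59% and 4.88% of all genes. SOCS1, SOCS2, SOCS3 and BCL6 stand on more than 1 of these lists.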

How the data were processed

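The authors sequenced total RNA as Illumina paired ends and deposited raw read counts, whole numbers for 43769 genes. The aligner, the counting tool and the genome build are not given in the sources used here. All gene identifiers are in GENCODE release 29 (GRCh38), from which positions and exon lengths were taken. The deposited DESeq2 tables hold log2 fold changes and p-values of the study's own comparisons and were not used, nor were 18 per-library columns whose names the labels do not explain. Conditions and replicate numbers came from the sample titles. 1 further STAT gene of the count table and some cell type markers are not reported here.

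Counts of all 12 libraries were scaled by TMM, filtered with filterByExpr (minimum count 10) and tested with the quasi-likelihood test of edgeR 4.0.16 (with limma 3.58.1 in R 4.3.3), with the 4 groups in 1 model. Tests are two-sided, and an adjusted p (Benjamini-Hochberg over 15828 genes) under 0.05 is a call. Single values were compared by exact permutation over libraries. Alternatives were DESeq2 1.42.0, its size factors, library size alone, no filter, a block for replicate number, only the libraries compared, STAT5A and STAT5B summed, and each library left out. Blocks within each doxycycline arm and leaving out replicate 3 of every group were chosen after seeing the data. Replicate numbers were taken to pair libraries because deviations from group means correlated at 0.338 to 0.804 in the 18 same-numbered pairs and at -0.628 to 0.143 in the 36 others. No 2 replicates agreed within sampling noise (chi-square per gene 19.8 to 85).

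The members and lists were chosen with earlier results of these data known. The text names all 6 members, from each list the 2 largest called changes in each direction of genes with at least 1 CPM, IRF9, JAK2, SOCS1 and SOCS3, and for each member the genes with the highest correlation (log2 CPM, prior count 2). TYK2 and IRF9 in further comparisons, IFIT2, HERC5 and IFI44L were named after their values were seen. A floor of 3 counts bounds folds against groups at or under it, taken as the mean over the group's libraries. Floors cover counting error only, since no molecular identifiers were stated. Motifs were searched with Python 3.11.15. The model was run on simulated data without any effect of replicate number, so that run cannot bear on results that depend on the block.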

Additional observations from a re-analysis of the deposited data

How the results depend on the processing

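STAT2 and STAT3 were called higher in both IFNγ comparisons under every alternative run, also without any 1 library, where log2 fold changes were 2.36 to 2.66 and 1.74 to 2.12 in I vs C and 2.17 to 2.43 and 1.61 to 2.18 in DI vs D. No member was called in D vs C, DI vs I or the interaction under any alternative that tested it. STAT4 had no adjusted p from DESeq2 in D vs C and DI vs I. It also did not pass the filter in the fit of only the C and D libraries or in that of only the C and I libraries. The replicate block raised the members called from 2 to 3 in I vs C and in DI vs D by adding STAT5A, and it changed no other member call. The block within each doxycycline arm called 4 in I vs C, adding STAT5A (1.86, adjusted p = 3.62e-06) and STAT6 (0.26, adjusted p = 0.0245), and called STAT5A in DI vs D (1.91, adjusted p = 6.24e-06). Fits without any 1 library were run without a block only, so they do not test the calls made with a block. STAT5A, not called by the unblocked fit of all 12 libraries, was called in 0 of 12 of them. Its values were 1.42 to 2.20 in I vs C and 1.23 to 2.40 in DI vs D. Without replicate 3 of every group, also with no block, STAT5A was called in I vs C (1.72, edgeR adjusted p = 0.0467). Uncalled values near 0 changed sign in places and were not called on either side. With library size alone these were STAT5B in DI vs D (-0.033), STAT2, STAT5B and STAT6 in D vs C (0.057, 0.064 and 0.036) and STAT3 in DI vs I (0.061). With the replicate block they were STAT5B in DI vs D (-0.000) and the STAT5A interaction (0.049, and 0.049 within arms), and without replicate 3 of every group STAT6 in D vs C (0.017) and STAT5B in DI vs I (-0.008). Leaving out 1 library gave ranges through 0 for STAT5B (-0.17 to 0.022) in I vs C, for STAT4 (-0.79 to 0.59), STAT5B (-0.11 to 0.11) and STAT6 (-0.12 to 0.61) in DI vs D, for STAT2 (-0.21 to 0.060), STAT3 (-0.27 to 0.30), STAT5A (-1.14 to 0.033), STAT5B (-0.10 to 0.080) and STAT6 (-0.48 to 0.21) in D vs C, for STAT3 (-0.18 to 0.083), STAT4 (-0.36 to 1.02), STAT5B (-0.056 to 0.17) and STAT6 (-0.43 to 0.11) in DI vs I, and for the interaction of STAT3 (-0.33 to 0.24), STAT5A (-0.58 to 0.59), STAT5B (-0.031 to 0.20) and STAT6 (-0.37 to 0.36). With longest transcripts as length 0 of 4 groups kept the order of levels. Depth limits STAT4 most, at 2 to 30 counts a library. The cause of these changes was not tested.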
